A study of Mus musculus with 4 samples.

Results

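Transcript levels of 8 genes of imprinted growth control were followed after transfection of Zac1 into the mouse neuroblastoma line Neuro-2A, by digital gene expression, which counts short sequence tags of transcripts. The genes were chosen by name as growth genes under parental imprinting and as their neighbours in the chromosome 7 cluster, and all 8 were found among the 12861 genes with a gene ID in the deposited table. They are Igf2, Igf2r, Grb10, Cdkn1c, Phlda2, Cd81, Tssc4 and Slc22a18. Zac1 is a zinc-finger transcription factor made by Plagl1, itself an imprinted gene. Cells labelled Zac1 received the plasmid pRK5-Zac1, and control cells received pRK5-CAT, which carries the bacterial chloramphenicol acetyltransferase gene. All cells were of the same line, labelled as of Swiss Albino strain, and were lysed 16 h after lipofection. Each group had 2 libraries from separate transfections, called replicate 9 and replicate 12 as in their titles. Replicate numbers were not stated to mark a shared day or batch.

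In an imprinted gene, the copy from one parent is silenced by marks set in that parent's germ line. Igf2 encodes a fetal growth factor made from the paternal copy, while Igf2r, Cdkn1c, Phlda2 and Slc22a18 are active mainly from the maternal copy in mouse, and several of them restrain growth. Grb10 is maternal in most mouse tissues and paternal in neurons. The counts here do not tell parental copies apart.

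Depth ranged from 11578920 to 13840674 recovered tags per library. Over the genes tested, Zac1 replicate 9 stood apart, with a median absolute log2 difference of 0.327 to 0.343 from the other 3 libraries, against 0.197 to 0.209 among those 3. Plagl1 (gene ID 22634) had 3497 and 1492 recovered tags in Zac1 replicates 9 and 12, against 0 in both CAT libraries, and tags of the plasmid's transcript may be among them. Markers of neuroblastoma were present in all libraries, with 14 of 16 listed and a summed normalised count of 62680 and 62900 in the Zac1 libraries, against 66620 and 67480 in the CAT libraries. Among markers of fibroblasts, macrophages, endothelium and glia, 2 of 7, 2 of 8, 4 of 6 and 4 of 7 were listed. Their sums were at most 74.4 in each library for the first 3 lists, and for glia were 416 and 387 in Zac1 cells, against 333 and 243 in CAT cells, most of it Mbp. The glial S100b was at 26.3 and 9.86 in Zac1 cells, against 0 counts in CAT cells, and the part of these markers in the results below was not tested.

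Each count stands for a tag next to a DpnII site (GATC) of a polyadenylated transcript. Which tags the authors assigned to each gene is not given in the sources used here. The site nearest the 3′ end and the 16 bases after it were therefore read from the GENCODE M21 transcripts, to show what kind of sequence stands behind the values. The tags below are those most common among the protein-coding transcripts of the genes whose levels are compared most closely, with the enzyme site in capitals.
Igf2: GATCccctcttgggtccctc
Cdkn1c: GATCcctctgccacgcaact
Grb10: GATCgctgtgcctccgaggg
Phlda2: GATCgacttccagaaccgtc
The Igf2 tag was the last in 4 of 7 such transcripts and was also found for Gm49394, another annotated gene, so tags of these 2 genes could not be told apart. For Cdkn1c the tag was the last in 2 of 4 transcripts, for Grb10 in 2 of 6 and for Phlda2 in 1 of 2, and none of these 3 tags was found for another gene.

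Igf2, the fetal growth factor gene, was not detected in control cells and was present in both Zac1 libraries. It (gene ID 16002, chromosome 7) had a normalised count of 48.7 in Zac1 replicate 9 and 18.8 in replicate 12, from 50 and 19 recovered tags, against 0 tags in CAT replicates 9 and 12. The groups did not overlap, with both Zac1 libraries above both CAT libraries, as for 17.2% of all genes tested. Against a fixed floor of 3 tags per CAT library, Igf2 was 11-fold higher in the Zac1 libraries, and 6.1-fold without Zac1 replicate 9. These folds are not confidence bounds. The upper 95% limit for a count of 0 was 3.69 tags, and counting error of the Zac1 tags is left out. On the log2(normalised count + 1) scale the difference was 4.97 ± 0.98 (SE, n = 2 per group; limma, Benjamini-Hochberg adjusted p = 0.0191). Of the 8 genes 7 were tested, and Igf2 was the 1 that passed, against 0.962% of the 11433 genes tested, of which 110 rose and 0 fell. Falls over all genes were also 0 with DESeq2 and with the quasi-likelihood test of edgeR, while limma had 110 falls (0.962%) and 598 rises (5.23%) at an unadjusted p under 0.05. The filter required a mean of at least 10 over the 4 libraries, which Igf2 and Cdkn1c reached only through their Zac1 libraries. Igf2 did not pass with Zac1 replicate 9 left out (limma adjusted p = 0.766) or with Zac1 replicate 12 left out (0.127), where 1 gene in all, or 0.00875%, passed as higher. Over all alternatives its adjusted p ran from 0.00031 to 0.766. Fewer transfected cells and less RNA per transfected cell cannot be told apart in these bulk libraries.

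**Figure D1:**
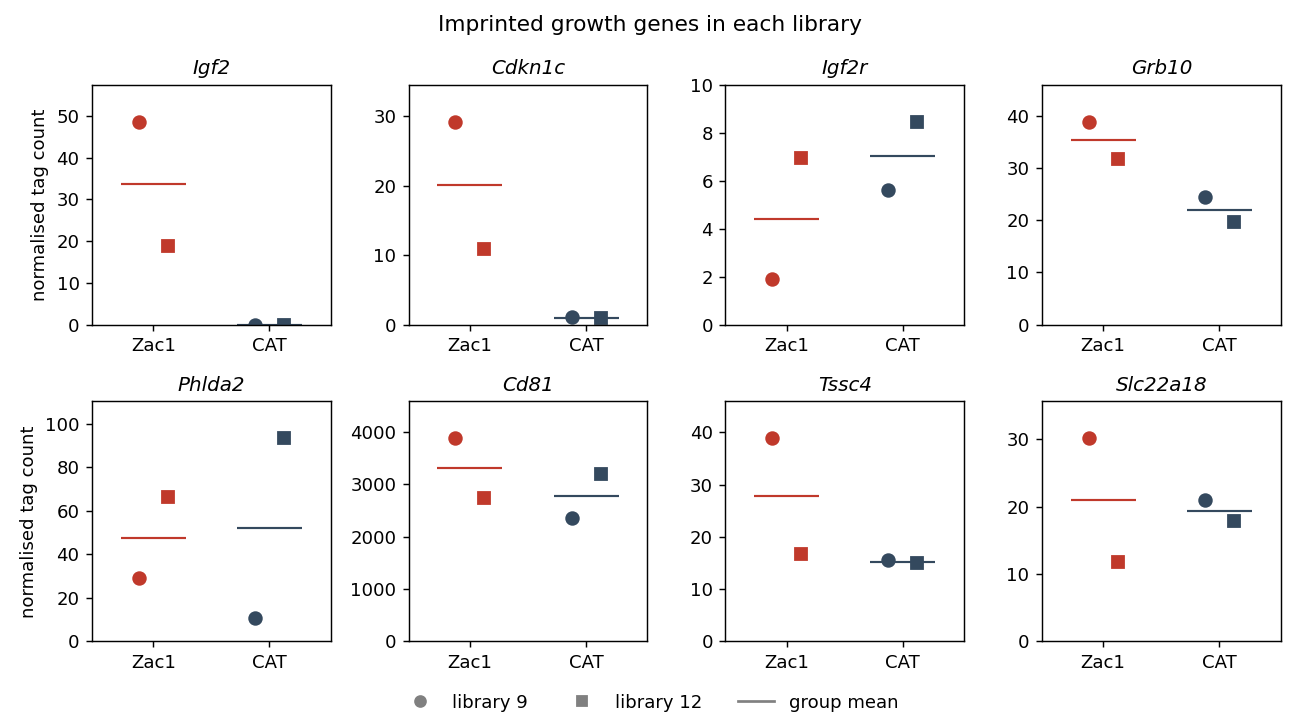
Normalised tag count of each of the 8 genes in each library, with Zac1 libraries in red and CAT libraries in dark blue, circles for replicate 9, squares for replicate 12 and lines for group means. Igf2 and Cdkn1c lie near 0 in both CAT libraries, Grb10 groups are apart by a narrow gap, and the Phlda2 values follow the replicate number.

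RefSeq annotates 4 start sites for Igf2, and the windows of 250 bases before to 50 bases after each were searched for GGGGCC on both strands. That is the 6-letter part of GGGGCCCC, a palindrome known to be bound by Zac1. GGGGCC was found in 2 of the 4 Igf2 windows, against 25% of all 32851 windows in the table. GGGGCCCC was found in none of the 11 windows of 7 of the 8 genes, against 1.08% of all windows, and Cdkn1c had no entry. The windows with a match are shown because Igf2 passed the test, with the match in capitals. Both are on the minus strand of build GRCm38.p6 and written 5′ to 3′ along the gene, while the authors' build was mm9. The capitals start at position -194 and -24 from the start site.
Igf2 chr7:142657447-142657746: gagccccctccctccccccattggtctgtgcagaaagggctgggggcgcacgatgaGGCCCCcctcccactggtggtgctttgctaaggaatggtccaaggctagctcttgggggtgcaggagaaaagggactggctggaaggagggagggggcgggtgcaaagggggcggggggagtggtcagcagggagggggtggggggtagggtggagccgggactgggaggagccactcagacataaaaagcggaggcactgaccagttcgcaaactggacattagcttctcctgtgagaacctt
Igf2 chr7:142666767-142667066: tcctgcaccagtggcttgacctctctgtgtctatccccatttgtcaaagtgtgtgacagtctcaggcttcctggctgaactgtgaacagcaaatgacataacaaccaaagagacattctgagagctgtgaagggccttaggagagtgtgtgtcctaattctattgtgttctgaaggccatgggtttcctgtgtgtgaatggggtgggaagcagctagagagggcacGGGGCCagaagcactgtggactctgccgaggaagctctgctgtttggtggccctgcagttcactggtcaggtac
The tags do not tell which of these starts was used. Among the other genes, 1 of the 2 Grb10 windows and the Cd81 window held GGGGCC, and those of Igf2r, Phlda2, Tssc4 and Slc22a18 did not.

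Igf2r encodes the receptor that carries Igf2 protein to lysosomes and so clears it. Igf2r (gene ID 16004, chromosome 17) was near the limit of detection, with 2 and 7 recovered tags in Zac1 replicates 9 and 12, against 5 and 9 in CAT replicates 9 and 12. The groups overlapped. The ratio of tags scaled to library size was 0.62, with an exact 95% interval of 0.237 to 1.54 that covers counting error only. Leaving out Zac1 replicate 9 gave a ratio of 0.972, and leaving out Zac1 replicate 12 gave 0.273. The gene was below the minimum mean and was not tested. With no filter on low values, limma gave -0.72 ± 0.83 (SE, adjusted p = 0.965).

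Other genes of IGF and insulin signalling gave no call. Of 39 names listed for this pathway, 26 were found and 25 tested, with 0 rises and 0 falls in limma and 0 at an unadjusted p under 0.05. Their median log2 difference was -0.05, against -0.01 over all genes tested. Shc1, an adaptor gene among those with the smallest unadjusted p values, was at 1050 and 1486 in the Zac1 libraries, against 841 and 1121 in the CAT libraries. Igf1r, the receptor through which Igf2 signals growth, was named for its role after its values were seen, and was at 906 and 894 in the Zac1 libraries, against 614 and 839 in the CAT libraries. Its log2 difference was 0.33 ± 0.23 (SE, limma adjusted p = 0.957).

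Grb10 encodes an adaptor protein that binds the insulin and IGF1 receptors and dampens their signal. Grb10 (gene ID 14783, chromosome 11) was at a normalised count of 38.9 and 31.6 in Zac1 replicates 9 and 12, against 24.3 and 19.7 in CAT replicates 9 and 12. Both Zac1 libraries lay above both CAT libraries, as they did for 17.2% of all genes tested. The log2 difference was 0.66 ± 0.45 (SE), with a 95% interval of -0.29 to 1.60, and did not pass (limma adjusted p = 0.955). The tags behind it were 40 and 32 in the Zac1 libraries, against 22 and 21 in the CAT libraries, a scaled ratio of 1.61 with an exact 95% interval of 1.09 to 2.41 for counting error alone. Of 9 relatives and partners tested, 0 passed, with a median of -0.02. The smallest unadjusted p values there were those of the adaptor gene Sh2b1, at 1100 and 727 in the Zac1 libraries, against 721 and 647 in the CAT libraries, and of the kinase gene Map2k1, at 1200 and 1105 in the Zac1 libraries, against 847 and 1080 in the CAT libraries.

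Cdkn1c encodes p57, an inhibitor of cyclin-dependent kinases that limits growth in the embryo. Cdkn1c (gene ID 12577, chromosome 7) had 30 and 11 recovered tags in Zac1 replicates 9 and 12, against 1 in each CAT library. The groups did not overlap, with both Zac1 libraries above both CAT libraries, as for 17.2% of all genes tested. The normalised counts were 29.2 and 10.8 in the Zac1 libraries, against 1.11 and 0.93 in the CAT libraries. The ratio of tags scaled to library size was 19.8, with an exact 95% interval of 5.13 to 169, and it was 10.7 (2.33 to 99.3) without Zac1 replicate 9. The log2 difference was 3.23 ± 0.94 (SE) and did not pass (limma adjusted p = 0.170). On recovered counts it passed in the quasi-likelihood test of edgeR (adjusted p = 0.0355), where 1.31% of genes passed as higher, and not in DESeq2 (0.120), where 1.25% did. It also passed in limma without a trend (adjusted p = 0.0438), where 0.691% of genes passed as higher, and its adjusted p ran from 0.0355 to 0.824 over all alternatives. Of 16 relatives and targets tested, 0 passed, and the median was 0.15. The smallest unadjusted p values were those of the cyclin gene Ccnd3, at 3044 and 2106 in the Zac1 libraries, against 1689 and 1796 in the CAT libraries, and of the retinoblastoma gene Rb1, at 256 and 262 in the Zac1 libraries, against 173 and 203 in the CAT libraries.

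Phlda2, a growth regulator of the placenta with a PH-like domain, differed by replicate number more than by plasmid. Phlda2 (gene ID 22113, chromosome 7) was at 29.0 and 66.3 in Zac1 replicates 9 and 12, against 10.6 and 93.4 in CAT replicates 9 and 12. The library numbered 12 was the higher one in both groups. In both groups 79 of the genes tested were at least 2 times higher in the library numbered 12, and 70 were at least 2 times higher in the library numbered 9. The log2 difference was 0.44 ± 0.69 (SE, limma adjusted p = 0.983), and was negative in edgeR (-0.12) and DESeq2 (-0.11). It was 1.96 without CAT replicate 12, -1.07 without CAT replicate 9 and -0.14 without Zac1 replicate 12.

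None of the other 3 cluster genes passed the test. Cd81, which encodes a tetraspanin of the cell surface, is the abundant one. Cd81 (gene ID 12520) was at 3881 and 2744 in Zac1 replicates 9 and 12, against 2352 and 3196 in CAT replicates 9 and 12, and the groups overlapped. Its log2 difference was 0.25 ± 0.23 (SE), with a 95% interval of -0.25 to 0.75 (limma adjusted p = 0.983). Tssc4 (gene ID 56844) was at 38.9 and 16.8 in the Zac1 libraries, against 15.5 and 15.0 in the CAT libraries, so the groups did not overlap, as for 17.2% of all genes tested, with Zac1 replicate 12 close to the controls. Its log2 difference was 0.71 ± 0.55 (SE, limma adjusted p = 0.972), 0.13 without Zac1 replicate 9 and 1.30 without Zac1 replicate 12. Slc22a18, which encodes a membrane transporter of the solute carrier class, lay with Zac1 replicate 9 highest and Zac1 replicate 12 lowest. Slc22a18 (gene ID 18400) was at 30.2 and 11.8 in the Zac1 libraries, against 21.0 and 17.8 in the CAT libraries, a log2 difference of -0.02 ± 0.56 (SE, limma adjusted p = 0.998) that was 0.035 with library totals made equal.

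**Figure D2:**
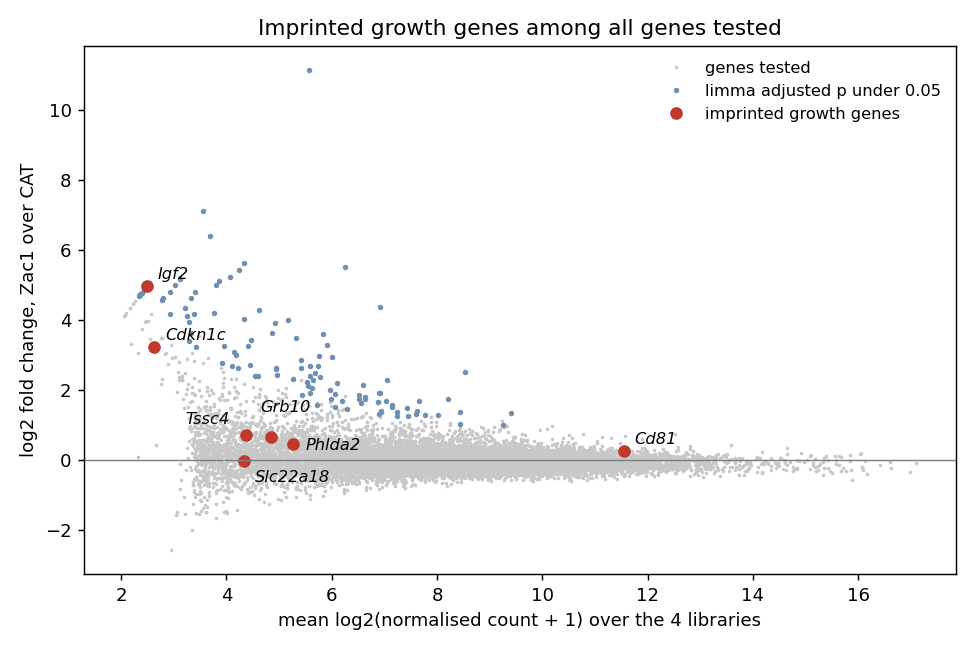
Log2 difference of Zac1 over CAT against the mean log2(normalised count + 1) over the 4 libraries, for all genes tested (grey), those with a limma adjusted p under 0.05 (blue) and the 7 imprinted growth genes tested (red). Igf2 and Cdkn1c stand at 4.97 and 3.23 at the low end of abundance, and the other 5 lie between -0.02 and 0.71.

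The part of distal chromosome 7 that holds Igf2 and Cdkn1c was then read gene by gene, from a list of 23 neighbours of which 20 were found and 19 tested. Tnni2, which encodes the fast skeletal troponin I, was the 1 of these 19 that rose, against 0.962% of all genes tested, and 0 fell. It had a normalised count of 167 and 80.1 in Zac1 replicates 9 and 12, against 0.01 and 0.95 in CAT replicates 9 and 12 (log2 difference 6.38 ± 0.68 SE, limma adjusted p = 1.06e-04). Tnni2 did not pass with Zac1 replicate 9 left out (limma adjusted p = 0.623) or with Zac1 replicate 12 left out (0.127), and its adjusted p ran from 1.71e-19 to 0.623 over all alternatives. The median over the 19 neighbours was 0.12, against -0.01 over all genes tested. Of 37 neighbours on chromosome 7 taken by annotated gene order, 17 were found and 15 tested, many of them also in the list. Their median was 0.31, with 12 above 0 and 3 below, and 1 passed. On chromosomes 11 and 17 the medians of such neighbours were -0.50 (2 tested) and -0.18 (3 tested), with 0 calls.

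A further 3 neighbours had large differences that did not pass, and are named after their values were seen. Tnnt3, the fast skeletal troponin T gene, was at 57.5 and 13.8 in the Zac1 libraries, against 2.24 and 2.82 in the CAT libraries (log2 difference 3.06 ± 0.79 SE, limma adjusted p = 0.0945). Its ratio of tags was 14.1 (95% interval 5.76 to 44.6), and 5.45 without Zac1 replicate 9 and 22.5 without Zac1 replicate 12. Kcnq1, a potassium channel gene whose locus also holds the antisense RNA gene Kcnq1ot1, was at 37.0 and 8.86 in the Zac1 libraries, against 1.09 and 0 in the CAT libraries (3.74 ± 1.06 SE, limma adjusted p = 0.142). Its ratio of tags was 45.3 (95% interval 7.74 to 1830), with 17.5 when Zac1 replicate 9 was left out, 72.6 when Zac1 replicate 12 was, and 20.8 when CAT replicate 12 was. Kcnq1 passed without CAT replicate 9 (limma adjusted p = 0.0333). Kcnq1ot1 was at 176 and 123 in the Zac1 libraries, against 147 and 117 in the CAT libraries, a log2 difference of 0.16 ± 0.28 (SE, limma adjusted p = 0.983). The sources used here do not give how the strand of tags was treated, so tags of these 2 genes may be mixed. Trpm5, a cation channel gene, was at 28.1 and 48.5 in the Zac1 libraries, against 0.10 and 8.56 in the CAT libraries (3.55 ± 0.88 SE, limma adjusted p = 0.0778), and depended on the control kept, at 5.11 without CAT replicate 12 (adjusted p = 3.8e-05, with 1.35% of genes passing as higher) and 1.99 without CAT replicate 9 (0.236, with 1.01%). With edgeR on recovered counts, Tnnt3 (adjusted p = 0.0239) and Kcnq1 (0.0262) passed and Trpm5 did not (0.063), over ranges of 0.00479 to 0.892, 0.0262 to 0.911 and 3.8e-05 to 0.911 across all alternatives.

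**Figure D3:**
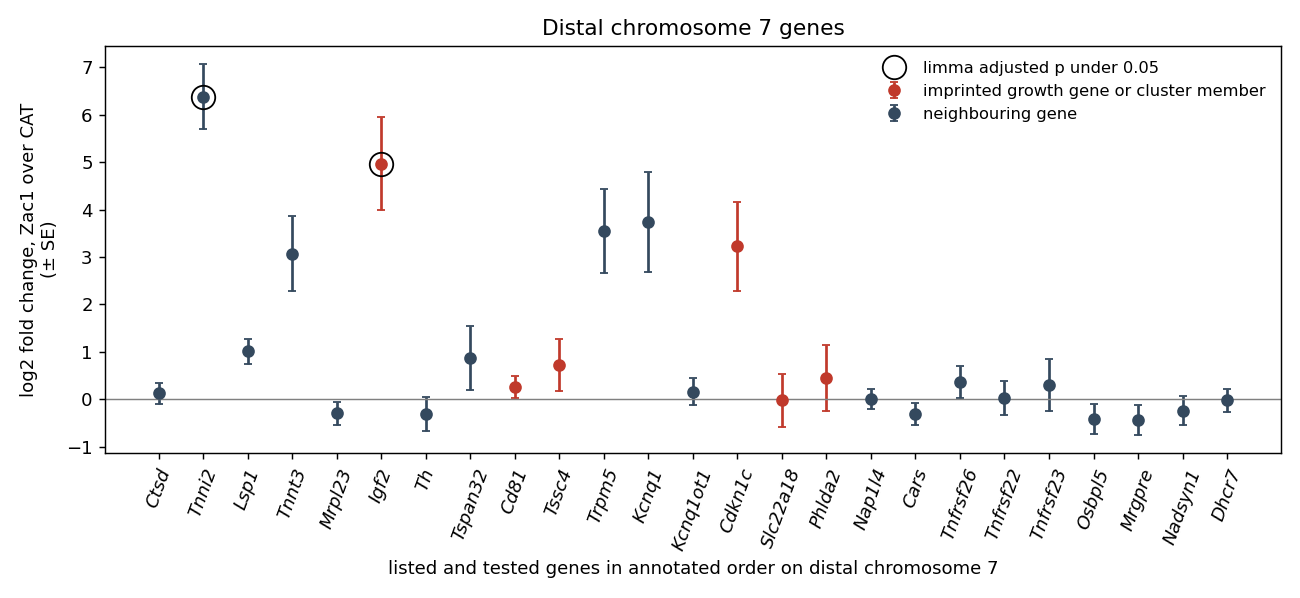
Log2 difference of Zac1 over CAT (± SE) for the 25 listed genes tested on distal chromosome 7, in their annotated order, with imprinted growth and cluster genes in red, neighbours in dark blue and rings around genes with a limma adjusted p under 0.05. Large values at Tnni2, Tnnt3, Igf2, Trpm5, Kcnq1 and Cdkn1c stand between genes near 0 such as Mrpl23, Th, Kcnq1ot1 and Slc22a18.

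In gene order, the listed genes with large differences were not a contiguous block, though Trpm5 and Kcnq1 were next to each other. Lsp1 lay between Tnni2 and Tnnt3 and is named after its values were seen. It was at 284 and 328 in the Zac1 libraries, against 184 and 124 in the CAT libraries. Its log2 difference was 1.01 ± 0.26 (SE, limma adjusted p = 0.0951). Tnni2, Tnnt3, Trpm5 and Kcnq1, like Igf2 and Cdkn1c, reached the minimum mean only through their Zac1 libraries. Each of these 6 had at most 9 recovered tags in the CAT libraries together. They were the 6 of 25 listed genes tested with a log2 difference above 3, a size that 68 (0.595%) of all genes tested had. Passing the filter through Zac1 libraries alone goes with a large difference, and the list was chosen with earlier results known. No excess in this region is therefore read from these shares. Mrpl23, a mitochondrial ribosomal protein gene between Tnnt3 and Igf2, was at 3554 and 5905 in the Zac1 libraries, against 5795 and 5455 in the CAT libraries. Th, the tyrosine hydroxylase gene beyond Igf2, averaged 50.9 ± 11.9 in the Zac1 libraries and 62.7 ± 3.82 in the CAT libraries (SD, n = 2 each). Beside Grb10 and Igf2r, 8 of 17 listed neighbours were found and tested, with 0 calls and a median of -0.18. The smallest unadjusted p values were those of Fignl1, at 734 and 1274 in the Zac1 libraries, against 1198 and 1317 in the CAT libraries, and of the decarboxylase gene Ddc, at 19.4 and 44.5 in the Zac1 libraries, against 41.2 and 50.7 in the CAT libraries. Airn, the noncoding RNA gene antisense to Igf2r, was at 18.5 and 18.8 in the Zac1 libraries, against 17.6 and 11.2 in the CAT libraries. Among relatives of Phlda2 and Cd81, 0 of 12 passed, with a median of 0.02 and the smallest unadjusted p values at the tetraspanin genes Cd82, at 96.2 and 56.3 in the Zac1 libraries, against 35.4 and 28.1 in the CAT libraries, and Tspan4, at 377 and 531 in the Zac1 libraries, against 693 and 494 in the CAT libraries.

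The size of the difference in Igf2 and Cdkn1c depended on the Zac1 library. The value of Zac1 replicate 9 was 2.60 times that of replicate 12 for Igf2 and 2.69 times for Cdkn1c. For Plagl1, the transfected gene, this ratio was 2.30. It was 2.55 for Slc22a18, 2.32 for Tssc4, 1.42 for Cd81, 1.23 for Grb10, 0.438 for Phlda2 and 0.276 for Igf2r. The median over all genes tested was 0.982, and 1.61 over the 110 genes that rose, 103 of which were higher in replicate 9. Transcripts of the risen genes had a median GC content of 58.6%, against 51.1% for the other genes tested, and it was 55.4% for Igf2 and 60.1% for Cdkn1c. After a smooth correction of each library for GC content Igf2 still passed, at 4.92 ± 0.97 (SE, limma adjusted p = 0.0352). Cdkn1c was then at 3.04 ± 0.92 (SE, limma adjusted p = 0.273), and 79 genes rose in place of 110.

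**Figure D4:**
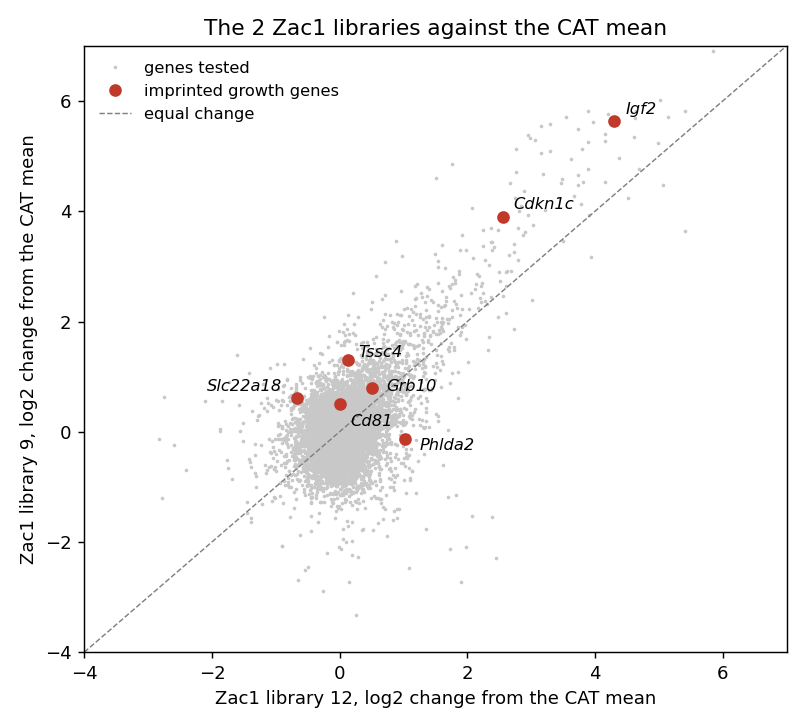
Change of each gene tested from the mean of the CAT libraries, on the log2(normalised count + 1) scale, in Zac1 replicate 12 (horizontal axis) and Zac1 replicate 9 (vertical axis), with the 7 imprinted growth genes in red and equal change on the dashed line. Igf2 (4.30 and 5.63) and Cdkn1c (2.55 and 3.90) are up in both libraries and above the line, Slc22a18 (-0.66 and 0.62) and Phlda2 (1.03 and -0.14) change sign between them, and 4 genes lie beyond the axes.

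Genes with levels most like those of Igf2, Cdkn1c and Grb10 were found by the Euclidean distance between log2(normalised count + 1) values over the 4 libraries. Nearest to Igf2 were the small heat shock protein gene Hspb7 at a distance of 0.38, the anion exchanger gene Slc4a1 at 0.46 and Dmrtc2 at 0.68. All 3 had 0 recovered tags in the CAT libraries, and Hspb7 was at 38.0 and 16.8 in the Zac1 libraries. Nearest to Cdkn1c were the potassium channel gene Kcnt1 (0.61), the plexin gene Plxnb3 (0.62) and Kirrel2 (0.76). Nearest to Grb10 were Tm6sf1 (0.26), the deubiquitinase gene Usp43 (0.26) and Megf11 (0.27). With only 4 libraries, these distances describe level and pattern and carry no test.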

How the data were processed

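Digital gene expression libraries were made from 2 µg of total RNA with DpnII and MmeI and 15 cycles of PCR, per the labels' protocols. The values deposited by the authors were a normalized signal, TMM pseudocounts per the name of the deposited table, and the submitters' processing notes name edgeR and build mm9. The mapping of tags to genes is not given in the sources used here. Of 12866 lines, 5 had no gene ID and were left out. They held 0.00897% and 0.00438% of the tags of Zac1 replicates 9 and 12, and 0% of those of the CAT libraries. Inverting edgeR's pseudocount formula on the deposited signal, with a common dispersion of 0.0364, gave whole reads, that is whole counts that returned 100% of the values within 1e-06. On simulated data the inversion recovered 100% of 50896 counts.

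Genes with a mean of at least 10 were tested (11433, leaving out 1428) with limma 3.58.1 in R 4.3.3 on log2(value + 1), with a variance trend, two-sided, Benjamini-Hochberg adjusted over all genes tested, threshold 0.05. This scale understates changes of low genes. The prior degrees of freedom were 14.1, so most weight lies on the spread of genes of like abundance. On simulated data this step called 54% of genes raised 2-fold and 90% of those raised 4-fold. For falls to 0.5 and 0.25 of the level it called 41.7% and 85.7%, and 0.0449% of unchanged genes. These rates were not split by abundance and may not hold for genes with few tags. A gene that did not pass may therefore still have changed. An exact permutation test of 2 against 2 cannot go below p = 0.333 and was not run. Alternatives used edgeR 4.0.16 and DESeq2 1.42.0 on recovered counts, other filters, pseudocounts, scalings, GC corrections and left-out libraries. PCR copies are not independent molecules, so bounds and intervals cover counting error only.

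The genes and lists were chosen with earlier results of these data known. The text names the 8 genes and each passing gene of a list, or else the 2 with the smallest unadjusted p. It also names the 3 nearest genes of Igf2, Cdkn1c and Grb10. Named outside this rule were Plagl1, Gm49394, Mbp, S100b, Mrpl23, Th, Kcnq1ot1, Airn and the genes marked as named after their values were seen. A gene that this rule would name is not reported here. Of 12861 gene IDs, 12839 were matched to RefSeq (GRCm38.p6), used for gene order, chromosomes and promoter windows.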

Additional observations from a re-analysis of the deposited data

Results flagged for a closer look

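The 5 lines without a gene ID, which entered no comparison, held 1116 recovered tags in Zac1 replicate 9 and 561 in Zac1 replicate 12, against 0 in both CAT libraries, and were singled out because this signal lies above that of the controls.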

How the results depend on the processing

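Igf2 kept its direction in all 15 alternatives that could test it and passed in 13. Leaving out a library in turn gave 4.30 to 5.63 for it, and it did not pass without either Zac1 library, where the lone sample is assumed to vary like the CAT libraries. With a mean of at least 50 no gene of the 8 passed (0), since Igf2 was no longer tested. Of the 7 imprinted growth genes tested, 2 passed in limma without a trend, where 0.691% of all genes tested passed as higher. In edgeR's quasi-likelihood test 2 passed as well, against 1.31% of all genes tested. They were Igf2 and Cdkn1c each time. Phlda2 turned to -0.12 in edgeR and -0.11 in DESeq2, and ranged from -1.07 to 1.96 with a library left out. Slc22a18 turned to 0.035 with equal totals, 0.13 in edgeR and 0.12 in DESeq2, and ranged from -0.67 to 0.62 with a library left out. The cause of these turns was not tested. Over all genes, 67 rose with a mean of at least 50, 1 to 154 with a library left out, and 0 to 5 fell with a library left out. Same-numbered libraries deviated together weakly, with a correlation of 0.2 across 11433 genes, and the numbers are not stated to pair them. With a replicate block 279 genes rose, and 228 rose and 2 fell with the block and a GC correction. Igf2 passed under the block (limma adjusted p = 0.00031) and Cdkn1c did not (0.0518). Tnni2, Tnnt3, Trpm5, Kcnq1 and Lsp1 also passed, 5 of the 19 neighbours tested, where 2.44% of all genes tested passed as higher. A GC correction by 20 bins, added after the data were seen, kept Igf2 as a call (adjusted p = 0.0332). No scaling moved the median of all genes by over 0.1. Depth limits Igf2r, Cdkn1c and Igf2 most, with 0 to 50 tags per library.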
